A study of Mus musculus with 22 samples.

Results

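The endogenous opioid system of the anterior cingulate cortex (ACC) was followed through 7 genes, taken by gene name from the 37786 genes of the count table. They were the 3 peptide precursor genes Penk (proenkephalin), Pdyn (prodynorphin) and Pnoc (prepronociceptin), and the 4 receptor genes Oprm1 (mu), Oprd1 (delta), Oprk1 (kappa) and Oprl1 (nociceptin receptor). All 7 passed the count minimum, 10 counts or more in 10 or more of the mice, and so were among the 17524 genes tested. Bulk ACC tissue was sequenced from 22 adult male wildtype C57BL/6J mice, 12 controls and 10 stimulated mice, each library coming from a separate animal according to its replicate label. Both groups carried the light-gated channel ChR2 fused to EYFP, delivered by an AAV5 vector under the CaMKIIa promoter to both basolateral amygdalae (BLA), and both had an optic fibre implanted in the ACC on one side. Stimulated mice received 9 sessions of blue light on BLA axons in the ACC, whereas in controls the light stayed off, and the ACC of both hemispheres was collected after the last session. The question put to these genes was whether repeated activation of this pathway, in animals without a pain lesion, changed their transcript levels in the ACC.

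Opioid peptides are cut from larger precursors at pairs of basic residues. Enkephalins act mainly on delta and mu receptors, dynorphins on the kappa receptor and nociceptin on its own receptor, and all of these receptors couple to inhibitory G proteins that open potassium channels and close calcium channels. In the cortex the precursors are made by subsets of neurons, and the ACC is a site where opioids alter the unpleasantness of pain.

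The precursors differ in how many peptides 1 transcript encodes, so equal transcript levels of Penk, Pdyn and Pnoc encode different numbers of copies. A search of the coding sequences in GENCODE M21 (GRCm38) for the enkephalin core, tyrosine, 2 glycines, phenylalanine and then methionine or leucine, found 7 copies in the 268 codons of Penk and 3 copies in the 248 codons of Pdyn. The corresponding stretch of Pnoc, whose coding sequence has 187 codons, begins with phenylalanine instead of tyrosine and occurred once. The runs below are on the coding strand, capitals mark the 15 bases of the 5-residue core, and the lower-case letters are the 2 codons on each side.
Penk copy 1: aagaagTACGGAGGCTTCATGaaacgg
Penk copy 2: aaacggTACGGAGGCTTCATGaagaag
Penk copy 3: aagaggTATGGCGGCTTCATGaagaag
Penk copy 4: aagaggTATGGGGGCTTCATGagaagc
Penk copy 5: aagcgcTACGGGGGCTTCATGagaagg
Penk copy 6: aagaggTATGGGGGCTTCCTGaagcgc
Penk copy 7: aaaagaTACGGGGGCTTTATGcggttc
Pdyn copy 1: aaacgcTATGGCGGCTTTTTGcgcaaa
Pdyn copy 2: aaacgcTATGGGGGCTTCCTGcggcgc
Pdyn copy 3: aagcgcTATGGTGGTTTCCTGcggcgt
Pnoc: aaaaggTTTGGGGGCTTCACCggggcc
Of the Penk copies, 6 ended in methionine and 1, copy 6, in leucine, while the 3 Pdyn copies all ended in leucine. Each of the 11 runs was preceded by codons for 2 basic residues. In Penk copies 4 and 7 and in Pnoc the 2 codons that followed did not both encode a basic residue. The first Penk copy lay at chr4:4134328-4134354 and the last at chr4:4133842-4133868, the Pdyn copies ran from chr2:129688232-129688258 to chr2:129688067-129688093, and the Pnoc run lay at chr14:65404872-65404898, all on the minus strand and each within a single exon. The counts are of reads from transcripts and do not measure any of these peptides.

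The genes themselves lay on 5 chromosomes of GRCm38. Penk (chr4:4133531-4138819, minus strand) and Oprd1 (chr4:132110726-132144486, minus) shared chromosome 4, and Pdyn (chr2:129686565-129699844, minus) and Oprl1 (chr2:181715016-181720985, plus) shared chromosome 2. Pnoc lay at chr14:65400673-65425472 (minus), Oprk1 at chr1:5588466-5606131 (plus) and Oprm1 at chr10:6758506-7038198 (plus). Oprm1 had 31 annotated transcripts, which gene counts sum. Penk shared 233 of its 1634 exonic bases with A830012C17Rik and Oprm1 shared 96 of 8037 with Ipcef1, in both cases on the opposite strand. Libraries were made by tagmentation of full-length cDNA and no strand setting of the counting was given, so reads from the shared bases cannot be assigned to 1 partner.

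Library totals ranged from 23090483 to 43668462 counts per mouse. Libraries carried numbers from 1 to 23 without 7, in 2 runs that each held controls followed by stimulated mice (1 to 11, with 6 controls and 4 stimulated mice, and 12 to 23, with 6 and 6), and 68.1% of all tested genes differed between the runs at an adjusted p under 0.05, so the run was kept in the model. Whether these runs are the animal batches named in the study's methods is not stated in the labels. All 9 cortical excitatory neuron markers examined passed the count minimum, with summed levels of 1616 to 3669 CPM (read counts scaled to a common library size), whereas 7 of 9 striatal projection neuron markers passed, with sums of 116.8 to 196.8 CPM. Single mice are named here by their group and replicate number, which is not the library number. Controls 9 and 11, both of the later run, stood apart: the mean log2 level of 7 oligodendrocyte markers was 2.07 and 1.53 above the mean of their run, against at most 0.37 in any other mouse. Controls 1 and 2, of the earlier run, had the highest shares of mitochondrial counts, 4.41% and 4.81% against 0.982% to 3.05% in the other mice. They were also 0.59 above the mean of their run for astrocyte markers and below it for all 7 opioid genes. The 7 genes are therefore given without each of these pairs, alternatives chosen after seeing the data. In such bulk tissue, fewer cells of a type and less RNA per cell cannot be told apart.

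Per length, Penk was the most abundant of the 7 genes in the ACC and Oprm1 the least. As CPM per kilobase of exon, Penk had a level of 33.1 ± 9.35 (SD, n = 22 mice), followed by Pdyn at 16.1 ± 3.56 and Oprl1 at 14.8 ± 2.15. Pnoc at 4.07 ± 0.686 and Oprd1 at 3.84 ± 1.72 came next. Oprk1 had 0.705 ± 0.220 and Oprm1 0.139 ± 0.0731 CPM per kilobase. In every mouse the enkephalin and dynorphin precursors thus exceeded the receptors they mainly act on, and among receptors the nociceptin receptor was the most abundant. Among 17516 genes with a level per length, Penk ranked at percentile 90.4, Oprl1 at 79.3 and Oprm1 at 4.06. By mean CPM without length, among all tested genes, Penk ranked at 74.9, Oprl1 just above it at 75.5 and Oprm1 at 18.4. Within mice, neighbours in the order per length were compared by a two-sided sign-flip permutation test with 100000 resamples, adjusted over 6 pairs. In 4 pairs, Penk over Pdyn, Oprl1 over Pnoc, Oprd1 over Oprk1 and Oprk1 over Oprm1, the order held in 22 of 22 mice (adjusted permutation p = 1.5e-05, from the smallest p these resamples can give). Pdyn and Oprl1 were not separated (Pdyn above in 18 of 22 mice, mean log2 ratio of levels 0.10 ± 0.25 SD, adjusted permutation p = 0.0741). Nor were Pnoc and Oprd1 over all mice (12 of 22, 0.22 ± 0.86, adjusted permutation p = 0.24), but their order was opposite in the 2 runs. Pnoc was above Oprd1 in 10 of 10 mice of the earlier run (4.52 ± 0.634 against 2.17 ± 0.369 CPM per kilobase, adjusted permutation p = 0.00254) and in 2 of 12 of the later run (3.70 ± 0.491 against 5.23 ± 0.951, adjusted permutation p = 0.00295). Pdyn and Oprl1 were separated in the earlier run alone (9 of 10 mice, adjusted permutation p = 0.00389). Lengths were those of all annotated exons together. With the longest transcript instead, the order and the calls were the same, but Oprm1 was at 0.461 ± 0.243 and Oprk1 at 1.38 ± 0.431, so that the mean log2 ratio of Oprk1 to Oprm1 went from 2.46 to 1.70 and that of Oprd1 to Oprk1 from 2.36 to 1.39.

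**Figure D1:**
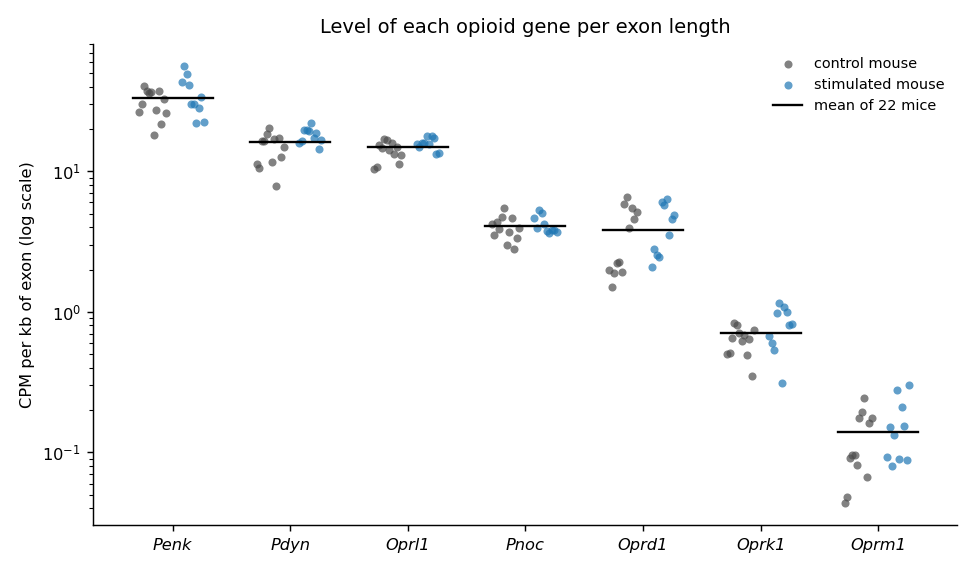
Level of each opioid gene in CPM per kilobase of exon on a log scale, 1 point per mouse, with the mean of 22 mice as a line. Penk (33.1) and Oprm1 (0.139) are the extremes, Pdyn and Oprl1 overlap, and the points of Oprd1 fall into 2 separate groups within both controls and stimulated mice.

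None of the 7 genes passed the test of stimulated against control mice after adjustment over all genes. In the edgeR quasi-likelihood fit with the run as a covariate, 0 of 17524 genes had an adjusted p under 0.05 (0%), and the adjusted p of the 7 genes ranged from 0.353 to 0.664. At an unadjusted p under 0.05 the fit held 2015 genes (11.5%), of which 6.05% of all tested genes were higher and 5.45% lower in stimulated mice. Only Pdyn was among them. DESeq2's Wald test called 33 genes and limma voom 1 gene at an adjusted p under 0.05, and neither called any of the 7. All 7 log2 fold changes were above 0, with a median of 0.22, beside 52.6% of all tested genes above 0 and a median of 0.0093 over them. These 7 values come from the same mice and are not independent of each other. Without controls 1 and 2 all 7 were still above 0, but each was smaller: 0.25 for Pdyn (unadjusted p = 0.0393), 0.15 for Penk (0.176), 0.072 for Pnoc (0.441), 0.11 for Oprl1 (0.150), 0.28 for Oprk1 (0.144), 0.083 for Oprd1 (0.441) and 0.21 for Oprm1 (0.379). The part of mitochondrial share and astrocyte markers in these values was not tested.

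Pdyn, the dynorphin precursor, had the smallest p of the 7 genes. Its level in the 12 controls was lowest at 22.6, with a median of 45.1 and a highest value of 58.2 CPM. In the 10 stimulated mice the lowest was 41.8, the median 52.2 and the highest 63.9 CPM. The groups overlapped, but no stimulated mouse fell under 41.8 CPM, while 5 controls did. These were controls 1, 2, 7, 9 and 11, at 32.5, 30.3, 33.9, 22.6 and 36.5 CPM. All but control 7 belong to the pairs set apart above, and no fit left out both pairs together. The group means were 42.0 ± 10.7 (SD, n = 12) and 52.1 ± 6.56 CPM (n = 10). In the edgeR fit the log2 fold change was 0.33 (SE 0.12, unadjusted p = 0.0143, adjusted p = 0.353). With the group as the only term it was 0.31 (SE 0.13, unadjusted p = 0.0263), in a fit where 3.61% of all tested genes were below that unadjusted threshold of 0.05. Within library numbers 12 to 23 all 6 stimulated mice were above the control median of 39.8 CPM and 3 were above every control. In library numbers 1 to 11 the 4 stimulated mice, at 45.9, 47.6, 56.8 and 56.5 CPM, lay inside the control range of 30.3 to 58.2 CPM. Stimulated means were 1.34 times the control mean in the later run and 1.15 times in the earlier one. In edgeR the log2 fold change was 0.39 (SE 0.16, unadjusted p = 0.0236) in the later run alone. In the earlier run alone it was 0.22 (SE 0.17, unadjusted p = 0.216).

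Control 9, 1 of the 2 mice with high oligodendrocyte markers, had the lowest Pdyn level of all (22.6 CPM), and control 11 had 36.5 CPM. Without both, the log2 fold change of Pdyn was 0.24 (SE 0.11, unadjusted p = 0.0470). With the oligodendrocyte marker score as a covariate beside the run, an alternative chosen after seeing the data, it was 0.17 (SE 0.11, unadjusted p = 0.123). Summed levels of the 7 oligodendrocyte markers ranged from 3186 to 19590 CPM in controls and from 2331 to 5788 CPM in stimulated mice, and all 7 had a negative log2 fold change at an unadjusted p under 0.05 (median -0.69), none at an adjusted p, beside 5.45% of all tested genes lower at that unadjusted threshold. The oligodendrocyte score of stimulated mice was -0.52 from that of controls within runs (permutation p = 0.0620, adjusted over 10 lists p = 0.343), with 0.046 in the earlier and -0.995 in the later run, the one that holds controls 9 and 11. Without these 2 mice the difference was -0.15, and -0.35 in the later run. Across the 22 mice, with values centred within runs, Pdyn and the oligodendrocyte score had a Pearson r of -0.73 (permutation p = 0.00046, adjusted over 70 relations p = 0.00805) and a Spearman rho of -0.65 (permutation p = 0.00084, adjusted p = 0.0098). Within runs r was -0.48 and -0.84. Without the 2 mice farthest from the median score it was -0.54, and without controls 1 and 2 it was -0.83. The score was measured after stimulation and was itself lower in stimulated mice, so the covariate fit cannot separate it from stimulation. The part of the marker difference in the Pdyn result was not tested.

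**Figure D2:**
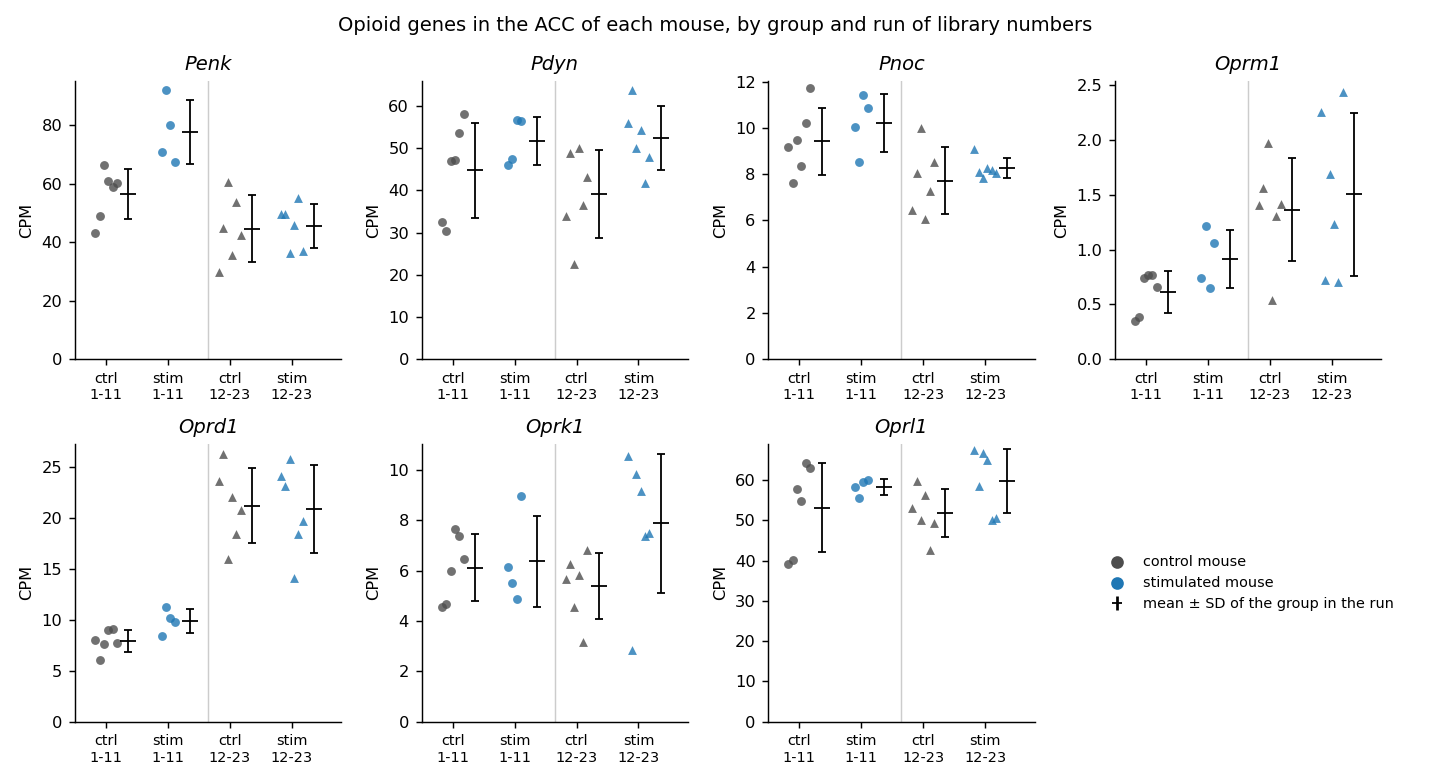
CPM of each opioid gene in every mouse, split by group (control grey, stimulated blue) and run of library numbers (circles 1-11, triangles 12-23), with mean ± SD beside the points and each axis starting at 0. In library numbers 1-11 the 4 stimulated mice lie above all 6 controls for Penk, and Oprd1 and Oprm1 sit higher in the later run in both groups.

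For Penk, the enkephalin precursor, the 2 runs gave unlike values. In library numbers 1 to 11 the controls had 43.1 CPM at the lowest, 59.5 at the median and 66.2 at the highest, and the 4 stimulated mice had 70.7, 91.9, 80.2 and 67.4 CPM. The 2 groups did not overlap there, which was the case with stimulated mice above in 0.514% of all tested genes. In library numbers 12 to 23 the controls ranged from 29.8 to 60.7 CPM around a median of 43.7, and the stimulated mice from 36.1 to 54.9 CPM around a median of 47.7. These groups overlapped fully, and for none of the 7 genes did they separate in this run, where 0.354% of all tested genes had every stimulated mouse above every control. Over both runs the means were 50.5 ± 11.5 CPM in controls (n = 12) and 58.3 ± 18.6 CPM in stimulated mice (n = 10). The edgeR log2 fold change of Penk was 0.22 (SE 0.11, unadjusted p = 0.0594, adjusted p = 0.452). It was 0.47 (SE 0.12, unadjusted p = 0.00207, adjusted p = 0.799) in the earlier run alone and -0.0034 (SE 0.15, unadjusted p = 0.982) in the later run alone.

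The difference between runs in the effect of stimulation was itself tested as an interaction. For Penk this difference, later minus earlier run, was -0.43 on the log2 scale (SE 0.22, unadjusted p = 0.0590, adjusted p = 0.633 in edgeR). Among all tested genes 8.01% had an unadjusted interaction p under 0.05 and 0% an adjusted one. None of the 7 genes reached 0.05, their unadjusted values lying between 0.0590 and 0.908, so a difference between runs was not shown for any of them.

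Control 9 had the highest Penk level of the later run's controls (60.7 CPM) and control 11 the second highest (53.8 CPM). Without both, the log2 fold change of Penk over all mice was 0.36 (SE 0.10, unadjusted p = 0.00126, adjusted p = 0.606). Leaving them out thus gave a larger value for Penk and a smaller one for Pdyn. With the oligodendrocyte score as a covariate, Penk was at 0.39 (SE 0.10, unadjusted p = 0.00062, adjusted p = 0.572).

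Penk also varied with markers listed for interneurons, the cortical cells that release GABA, although bulk tissue does not show which cells express them. Its Pearson r with a score of 11 interneuron subtype markers was 0.76 (permutation p = 0.0001, adjusted p = 0.00233) and its Spearman rho 0.62 (permutation p = 0.00354, adjusted p = 0.031), with r at 0.82 and 0.70 within the runs and 0.61 without the 2 farthest mice, and at 0.65 without controls 1 and 2. With 6 general GABAergic markers r was 0.67 (adjusted permutation p = 0.0111), and 0.51 without controls 1 and 2. The sign of this r turned when values were not centred within runs. The interneuron score was 0.13 above that of controls in stimulated mice within runs on the log2 scale (permutation p = 0.0687, adjusted over 10 lists p = 0.343), with 0.19 in the earlier and 0.083 in the later run. Without controls 1 and 2 it was 0.083, and 0.084 in the earlier run. The score of the 6 general GABAergic markers in stimulated mice was 0.063 above that of controls within runs (permutation p = 0.377). Without controls 1 and 2 that difference was 0.010. Of the 11 interneuron subtype genes, 9 had a log2 fold change above 0. Of these 9, 4 (Sst, Npy, Cck and Calb2) had an unadjusted p under 0.05, none an adjusted one, beside 6.05% of all tested genes higher at that threshold. The 2 below 0 were Pvalb (-0.26, SE 0.21) and Lamp5 (-0.016, SE 0.11). With the group as the only term 0 of the 11 were under 0.05. Their summed level was 859.9 to 2148 CPM in controls and 1047 to 2592 CPM in stimulated mice. The part of the interneuron score in the Penk values was not tested.

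**Figure D3:**
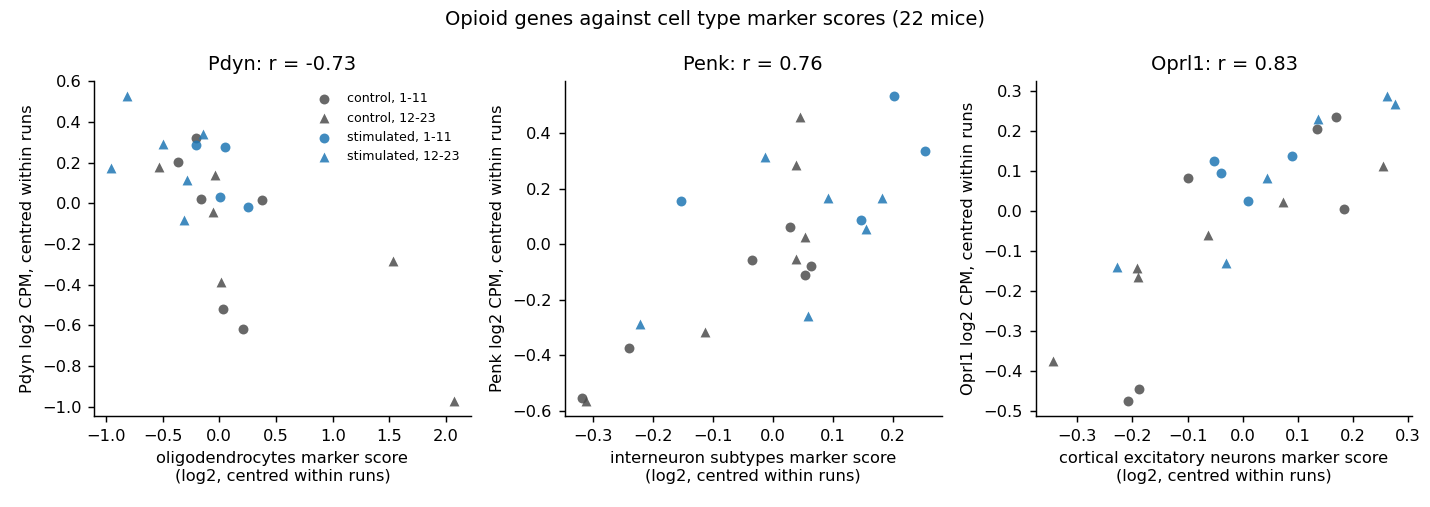
Log2 CPM of Pdyn, Penk and Oprl1 against the score of a cell type marker list (mean log2 level of its genes), 1 point per mouse, both axes centred within runs of library numbers. Pdyn falls with the oligodendrocyte score (r = -0.73), 2 controls of the later run lying far to the right, while Penk with interneuron markers (r = 0.76) and Oprl1 with excitatory neuron markers (r = 0.83) go up together.

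Pnoc, the nociceptin precursor, had the smallest log2 fold change of the 7. Controls had 6.05, 8.44 and 11.7 CPM at the lowest, median and highest, and stimulated mice 7.84, 8.40 and 11.4 CPM. The groups overlapped over nearly their whole range. Means were 8.57 ± 1.64 and 9.04 ± 1.29 CPM, and the edgeR log2 fold change was 0.10 (SE 0.09, unadjusted p = 0.257, adjusted p = 0.664), or 0.15 (SE 0.09, unadjusted p = 0.102) without controls 9 and 11. Like Penk, it varied with the interneuron score (r = 0.57, adjusted permutation p = 0.0382; rho = 0.60, adjusted permutation p = 0.0402; within runs 0.51 and 0.65).

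Among the receptors, Oprl1 was the most abundant and had the smallest error. It had 39.2, 53.9 and 64.2 CPM at the lowest, median and highest in controls and 50.1, 59.0 and 67.4 CPM in stimulated mice. The upper ends of the groups were close, and the 4 lowest values, from 39.2 to 49.3 CPM, were all of controls. Means were 52.5 ± 8.48 and 59.1 ± 6.04 CPM, with a log2 fold change of 0.17 (SE 0.09, unadjusted p = 0.0528, adjusted p = 0.439 in edgeR). It was 0.15 in the earlier and 0.17 in the later run alone, and 0.14 (SE 0.09, unadjusted p = 0.140) without controls 9 and 11.

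Oprl1 accounted for 7 of the 18 relations, of 70 computed, between the 7 genes and the marker scores that had an adjusted permutation p under 0.05. The closest was with the 9 excitatory neuron markers, with a Pearson r of 0.83 and a rho of 0.83 (both adjusted permutation p = 0.00035), 0.76 and 0.94 within runs, 0.78 without the 2 farthest mice and 0.86 without controls 1 and 2. With the 5 astrocyte markers r was -0.81 and rho -0.81 (both adjusted permutation p = 0.00035), and the values within runs were -0.80 and -0.83 and that without controls 1 and 2 was -0.70. The excitatory score of stimulated mice was 0.085 above that of controls within runs (permutation p = 0.286) and the astrocyte score -0.15 from it (permutation p = 0.345). Without controls 1 and 2 these differences were 0.054 and -0.044, and without controls 9 and 11 they were 0.030 and -0.14. Pdyn had 4 of the 18 relations, the one with excitatory markers at r = 0.66 (adjusted permutation p = 0.0111) and that with astrocytes at r = -0.56 (adjusted permutation p = 0.0364; -0.36 without controls 1 and 2) besides those with oligodendrocytes and interneuron subtypes. Some of the 18 were weaker without controls 1 and 2: r went from 0.64 to 0.36 for Oprl1 with GABAergic markers, from -0.69 to -0.41 for Oprl1 with endothelial markers and from 0.52 to 0.30 for Pdyn with interneuron subtypes. In 17 of the 18 the sign of r was the same in both runs, the exception being Oprd1 with claustrum and deep cortex markers (-0.13 and 0.79). For 12 of the 18 the rank correlation also had an adjusted p under 0.05.

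Oprk1, the kappa receptor on which dynorphins act, was low in the ACC. Its counts ran from 75 to 427 per mouse. Controls had 3.18, 5.92 and 7.67 CPM at the lowest, median and highest, and stimulated mice 2.86, 7.44 and 10.6 CPM. The stimulated mice spread wider and included both the lowest and the highest value. In library numbers 12 to 23, 5 of 6 stimulated mice were above every control, whose highest value was 6.81 CPM, and the remaining mouse, at 2.86 CPM, was below every control. In the earlier run 1 of 4 stimulated mice was above all controls. The means were 5.76 ± 1.31 and 7.28 ± 2.44 CPM and the log2 fold change was 0.33 (SE 0.18, unadjusted p = 0.0765, adjusted p = 0.481 in edgeR). In the earlier run alone it was 0.072 (SE 0.21) and in the later run alone 0.52 (SE 0.25). The value moved with the fit and with single mice. limma voom with sample weights gave 0.10 (SE 0.20, unadjusted p = 0.615) and the oligodendrocyte covariate 0.21 (SE 0.18, unadjusted p = 0.264). Leaving out stimulated mouse 6, the one at 2.86 CPM, gave 0.41 (unadjusted p = 0.0126), and leaving out controls 9 and 11 gave 0.21 (unadjusted p = 0.238).

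Oprd1, the delta receptor, differed far more between runs of library numbers than between groups. In the earlier run its level lay between 6.05 and 11.2 CPM in all 10 mice, and in the later run between 14.1 and 26.3 CPM in all 12, with no overlap. Later minus earlier run, the log2 difference was 1.26 (SE 0.11, adjusted p = 1.41e-10 in edgeR). Within the earlier run 3 of 4 stimulated mice, at 11.2, 10.2 and 9.83 CPM, were above every control, and the fourth, at 8.38 CPM, was above the control median of 7.88 CPM. Within the later run the medians were 21.4 CPM in both groups. Over both runs, means were 14.5 ± 7.40 CPM in controls and 16.5 ± 6.54 CPM in stimulated mice, with a log2 fold change of 0.13 (SE 0.11, unadjusted p = 0.235, adjusted p = 0.647), or 0.085 (SE 0.11, unadjusted p = 0.449) without controls 9 and 11. The sign turned in the later run alone, at -0.056 (SE 0.15), against 0.34 (SE 0.14, unadjusted p = 0.0286) in the earlier run alone.

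Oprm1, the mu receptor through which morphine acts, was near the count minimum, with 11 to 91 counts per mouse. Controls had 0.351, 0.767 and 1.97 CPM at the lowest, median and highest and stimulated mice 0.647, 1.14 and 2.43 CPM. In the earlier run 2 of 4 stimulated mice, at 1.21 and 1.06 CPM, were above every control, whose highest value was 0.771 CPM, and in the later run the groups overlapped widely. The log2 fold change was 0.33 with an SE of 0.24 (unadjusted p = 0.182, adjusted p = 0.597 in edgeR), as large a value as that of Pdyn but with the largest SE of the 7. It was 0.59 (SE 0.33, unadjusted p = 0.0931) in the earlier run alone and 0.11 (SE 0.34, unadjusted p = 0.755) in the later run alone. Without controls 9 and 11 it was 0.44 (SE 0.26, unadjusted p = 0.103).

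**Figure D4:**
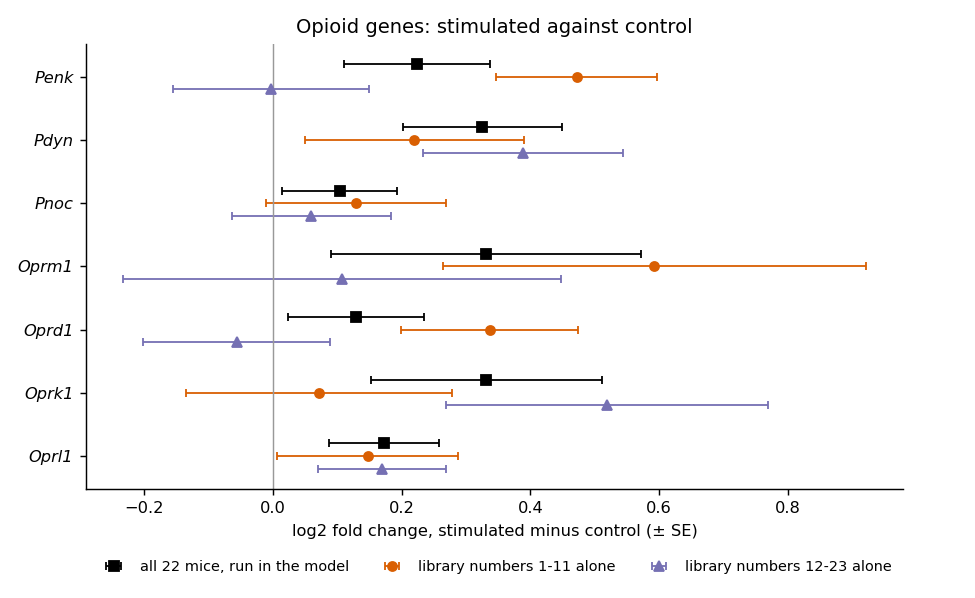
Log2 fold change of each opioid gene, stimulated minus control, ± SE, over all 22 mice with the run as a covariate (black squares) and in each run of library numbers alone (orange circles 1-11, purple triangles 12-23). All 7 values over all mice lie above 0, from 0.10 for Pnoc to 0.33 for Pdyn, Oprk1 and Oprm1, and in the later run alone Oprd1 and Penk are at -0.056 and -0.0034.

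Besides Oprd1, 3 of the 7 genes differed between the runs at an adjusted p under 0.05 in edgeR. Oprm1 was higher in the later run by 0.95 on the log2 scale (SE 0.25, adjusted p = 0.0013), while Penk (-0.53, SE 0.11, adjusted p = 0.00018) and Pnoc (-0.29, SE 0.09, adjusted p = 0.00516) were lower. Of all tested genes 33.7% were higher and 34.3% lower in the later run, so 2 genes in each direction of 7 were near that share. Pdyn (-0.10), Oprk1 (0.035) and Oprl1 (-0.0059) had adjusted values above 0.4.

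Genes whose level followed each of the 7 most closely across the 22 mice were ranked by the Pearson r of log2 CPM centred within runs, as a description without a test. For the genes named here r in the later run alone, which does not hold controls 1 and 2, was between 0.58 and 0.94. Pdyn was followed by Svop (0.94), a synaptic vesicle protein, Rgs14 (0.93), a regulator of G protein signalling, and Lrpap1 (0.92). These 3 had log2 fold changes of 0.21, 0.23 and 0.15 between the groups. As values were centred within runs and not within groups, a group difference shared with Pdyn adds to these r values. Oprl1 was followed by Gpat4 (0.94), Tmem130 (0.94) and Ift122 (0.93). For Penk the closest were Wrap53 (0.82), Them6 (0.81) and Kcns1 (0.80), a potassium channel subunit. For Pnoc they were Mia2 (0.80), Sgf29 (0.79) and Tsfm (0.77). Oprd1 went most closely with Klhdc10 (0.81), Egr4 (0.77), an activity-induced transcription factor, and Tunar (0.74). Oprk1 went with Gm6368 (0.81), Igsf21 (0.81) and Sla (0.80), and Oprm1 with Gm12182 (0.72), Pcp4 (0.70) and Th (0.69), the enzyme that makes the precursor of dopamine. The lower coefficients of Oprm1 stand beside its lower counts.

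The genes that process, degrade and transmit opioid peptides were examined as 33 further genes, all of them tested. At an unadjusted p under 0.05, 1 was higher and 1 lower in stimulated mice, and 0 passed the adjusted test, beside 6.05% and 5.45% of all tested genes at the unadjusted threshold. Of the 33, 21 had a log2 fold change above 0, and their median was 0.034.

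Of the 6 genes of precursor processing, 3 were above and 3 below 0 (median 0.0073). Pcsk1, a convertase that makes the first cuts in such precursors, had means of 82.8 ± 44.5 CPM in controls and 78.6 ± 42.5 CPM in stimulated mice and a log2 fold change of -0.25 (SE 0.10, unadjusted p = 0.0149, adjusted p = 0.354 in edgeR). Its direction thus was opposite to that of Pdyn and Penk. With the group as the only term the value was -0.075 (unadjusted p = 0.823), and Pcsk1 differed by 1.63 on the log2 scale between the runs. Cpe, the carboxypeptidase that trims the basic residues, and Scg5, a chaperone of the second convertase, had the highest levels per length of the list (1788 and 218.5 CPM per kilobase) and log2 fold changes of -0.022 (SE 0.11) and 0.016 (SE 0.065).

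Among 5 peptidases that degrade enkephalins and related peptides, 3 were above and 2 below 0 (median 0.034). Npepps (0.055, SE 0.060) and Dpp3 (0.034, SE 0.066) were the most abundant per length. Of 9 genes of inhibitory G proteins and GIRK potassium channels, through which all of the receptors act, 6 were above and 3 below 0 (median 0.043), with Gnai1 at 0.060 (SE 0.096) and Gnai2 at 0.043 (SE 0.081).

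Of 9 genes of receptor desensitization, 6 were above and 3 below 0 (median 0.037). Rgs14, the gene that also followed Pdyn most closely but for Svop, had means of 84.9 ± 18.2 and 97.2 ± 7.19 CPM and a log2 fold change of 0.23 (SE 0.09, unadjusted p = 0.0187, adjusted p = 0.363 in edgeR). Rgs4, which shortens G protein signals, and Grk2, the kinase that marks activated receptors for arrestin, were the most abundant per length and had values of 0.019 (SE 0.11) and -0.0067 (SE 0.087). Of the 4 other opioid-related genes, 3 were above 0 (median 0.061), with Kcnip3, whose product DREAM binds the Pdyn gene, at 0.064 (SE 0.057) and Ogfr, a receptor for enkephalin outside this family, at 0.059 (SE 0.051).

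**Figure D5:**
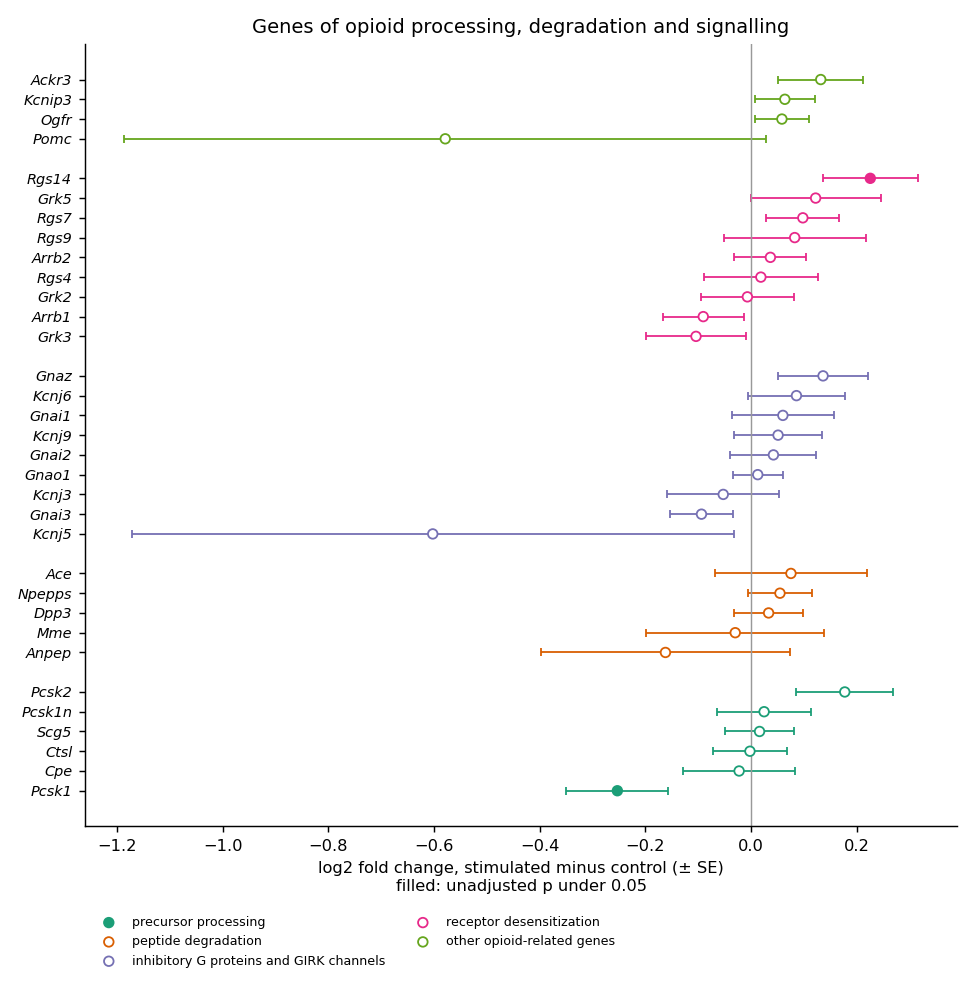
Log2 fold change, stimulated minus control, ± SE, of 33 genes of opioid precursor processing, peptide degradation, inhibitory G proteins and GIRK channels, receptor desensitization and other opioid-related genes, in the fit with the run as a covariate. Filled points mark an unadjusted p under 0.05, Rgs14 at 0.23 and Pcsk1 at -0.25, and the wide bars of Kcnj5 and Pomc belong to genes with few or uneven counts.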

How the data were processed

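RNA was extracted from bulk ACC of 22 mice, and libraries were made with SMART-Seq v4 and Nextera XT and sequenced on an Illumina HiSeq. The authors trimmed reads with cutadapt 1.10, mapped them to mm10 with STAR 2.5.3a and counted the reads that aligned to 1 place, gene by gene, with HTSeq 0.6.1p1 on Ensembl annotation, and the deposited table holds these raw counts. It also holds a signal per mouse, the counts that the authors divided by size factors, which was used only to check the columns, and their DESeq2 1.22.1 comparison of the groups (log2 fold change, p and adjusted p), which was not used. Samples were grouped by their treatment label, and 0 other columns of per-sample values were present.

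Counts were tested with edgeR 4.0.16 (R 4.3.3; TMM scaling, quasi-likelihood F test, Benjamini-Hochberg over the 17524 genes with 10 or more counts in 10 or more mice), with a covariate for the run of library numbers in place of the batch term of the study's methods. RNA integrity, the study's other covariate, was not used here. SE is the absolute log2 fold change divided by the root of F. CPM are TMM-scaled. Marker scores are means of log2 CPM (prior count 2) centred per gene, compared by permutation within runs. Values behind r and rho were not centred within groups, so differences between the groups remain in them. Exon lengths came from GENCODE M21, which held 37772 of 37786 gene identifiers. The scripts were tested on simulated data. DESeq2 1.42.0, limma 3.58.1 and sva 3.50.0 served for alternatives. The genes named were the 7 opioid genes, of each pathway list the 2 with the highest level per length and those at an unadjusted p under 0.05, and for each opioid gene the 3 genes with the highest r. Sst, Npy, Cck, Calb2, Pvalb, Lamp5 and the genes named for overlap or wide errors were named after their values were seen. The 7 genes, the gene lists and the marker lists were chosen with earlier results of these data known. Samples with the same replicate number in both groups were checked for pairing: deviations from group means correlated at 0.308 on average over 10 pairs, but at 0.0511 (3 of 10 pairs over 0.1) within runs, so the numbers were not taken to pair the mice. Intervals and errors cover the spread between mice.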

Additional observations from a re-analysis of the deposited data

Results flagged for a closer look

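Of 35 sets of 4 to 10 mice examined for a value far from the rest, 1 held such a value, where chance gives about 1 in 20. The Pnoc level of stimulated mouse 5, in library numbers 12 to 23, was 9.08 CPM, while the other mice of that set of 6 lay between 7.84 and 8.27 CPM. Its gap to the nearest mouse was 0.649 of the whole range, over the limit of 0.625. The value is inside the range of the controls, 6.05 to 11.7 CPM.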

How the results depend on the processing

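The count of genes at an unadjusted p under 0.05 (2015) was 632 with the group as the only term, 3687 with no count minimum, 974 in library numbers 1 to 11 alone, and between 1561 (without control 11) and 2489 (without control 6) when 1 mouse was left out. Genes at an adjusted p under 0.05 (0) numbered 33 by DESeq2's Wald test, 1 by limma voom, 1 without controls 9 and 11 together, and 0 to 1 when 1 mouse was left out (1 without control 9). With the replicate number as a block the unadjusted count was 1291 without the run. The 2 of 33 pathway genes at an unadjusted p under 0.05 became 4 with the block and the run, 1 with the block alone, 0 with the group as the only term, 4 with limma voom, 4 with 1 surrogate variable, and 1 each in library numbers 1 to 11 alone, without controls 9 and 11 together, and with the oligodendrocyte score as a covariate. Of all 17524 tested genes, those under that threshold numbered 1980 with the block and the run and 2860 with limma voom. They numbered 1937 with 1 surrogate variable and 1430 without controls 9 and 11. The block with the run put Oprk1, Oprl1, Penk and Pdyn under an unadjusted 0.05, none under an adjusted one, beside 1980 of 17524 tested genes under the unadjusted threshold. In library numbers 12 to 23 alone Oprd1 turned to -0.056 and Penk to -0.0034. In the order of levels, the mean log2 ratio of Pnoc to Oprd1 was 1.07 in library numbers 1 to 11 and -0.49 in 12 to 23 alone, and that of Pdyn to Oprl1 0.15 in 1 to 11 alone, all 3 past the threshold. The striatal marker score turned to -0.041 with the median over the list. Without centring within runs, the r of Penk with GABAergic markers was -0.27 and that of Oprm1 with endothelial markers 0.30, and 8 other relations lost their adjusted p under 0.05.

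Pdyn had an unadjusted p under 0.05 in 22 of 22 fits that left out 1 mouse (log2 fold change 0.26 to 0.37) and in 12 of 14 other settings; the exceptions were library numbers 1 to 11 alone (p = 0.216) and the oligodendrocyte covariate (p = 0.123). Penk was under 0.05 in 4 of 22 such fits. Its value ranged from 0.17 without stimulated mouse 2 (p = 0.152) to 0.29 without control 9 (p = 0.0103). It was under 0.05 in 6 of 14 other settings, among them limma voom (0.31, p = 0.00433), no count minimum (0.23, p = 0.0417) and the block with the run (0.28, p = 0.0143). None of the 7 genes had an adjusted p under 0.05 in any setting run. Leaving out controls 9 and 11 or controls 1 and 2 together, levels by run, marker scores without them, the oligodendrocyte covariate and DESeq2 size factors for the run and interaction terms were chosen after seeing the data. With 11 to 91 counts per mouse, Oprm1 has the least precise values.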
